A study of Mus musculus with 2 samples.

Results

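The miR-15/16 family was examined in gastrocnemius, a large muscle of the calf, from female mice. Its 8 genes, Mir15a, Mir16-1, Mir15b, Mir16-2, Mir195a, Mir497, Mir322 and Mir503, were taken by their GENCODE M21 symbols out of 2202 annotated microRNA genes, and they lie in 4 clusters of 2 genes each. Each library came from a B6CASTF1/J female aged 36 days, a first-generation hybrid of C57BL/6 and CAST/EiJ parents, with no treatment named and no other group. The labels number the samples as biological replicates 1 and 2 and give both the same donor identifier, so whether they came from 1 mouse or 2 is not settled. The differences reported here are between libraries, and spread between mice, between pieces of tissue and between preparations cannot be told apart. Total RNA was used, with library inserts under 30 nucleotides. In replicate 1, 1593787 reads were assigned to microRNA genes, and in replicate 2, 2078101.

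MicroRNAs of this family are short RNAs that guide Argonaute proteins to messenger RNAs, chiefly through their seed, bases 2 to 8 from the 5′ end. Their best known targets drive the cell cycle, among them the D and E cyclins, Cdk6, Wee1, Chek1 and the phosphatase Cdc25a, together with the survival gene Bcl2. In mouse skeletal muscle, miR-322 and miR-503 are known to be induced as myoblasts leave the cell cycle, and miR-195 and miR-497 to favour quiescence of the muscle stem cells, while in mouse heart miR-195 is tied to the withdrawal of newborn cardiomyocytes from division. Mir15a and Mir16-1 sit at a locus lost in human chronic lymphocytic leukaemia.

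All 8 genes were matched to mature sequences of RefSeq (build GRCm38.p6). The 5p arms, from which the family takes its seed, are shown first because they decide which members can be told apart. Capitals mark the seed.
miR-15a-5p: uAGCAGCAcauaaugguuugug
miR-15b-5p: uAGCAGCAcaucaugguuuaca
miR-16-5p: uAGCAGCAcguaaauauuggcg
miR-195a-5p: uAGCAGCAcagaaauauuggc
miR-497a-5p: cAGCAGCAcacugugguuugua
miR-322-5p: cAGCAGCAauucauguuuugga
miR-503-5p: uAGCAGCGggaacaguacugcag

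The 8 genes gave 7 distinct 5p sequences, since Mir16-1 and Mir16-2 both give miR-16-5p. The seed AGCAGCA was common to 7 genes, and Mir503 alone had AGCAGCG. Bases 2 to 7 were identical in all members, and these 6 positions were the only ones identical in all members among the first 21. Over the whole length miR-16-5p and miR-195a-5p had 19 of 21 bases identical. miR-15a-5p and miR-15b-5p matched at 18 of 22 bases, miR-15a-5p and miR-497a-5p at 17 of 22, and miR-322-5p and its neighbour miR-503-5p at 11 of 22. The first base was U in 6 genes and C in 2, Mir497 and Mir322.

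The identity of the copies of miR-16-5p bears on every value of Mir16-1 and Mir16-2. Their hairpins shared a run of 23 bases, 1 more than the mature microRNA.
shared run: uagcagcacguaaauauuggcgu
Reads that fit several places of the genome stand in a summary row and are credited to no gene, and their share was 75.4% in replicate 1 and 77.6% in replicate 2. A read that ends inside the shared run fits both Mir16 genes. The Mir16-1 and Mir16-2 counts therefore hold only reads that reach beyond it or come from elsewhere in the hairpin, such as the other arm, whose sequence differs between the copies.
miR-16-1-3p: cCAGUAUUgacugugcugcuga
miR-16-2-3p: aCCAAUAUuauugugcugcuuu
The tables count whole hairpins, so the arms cannot be told apart, and the level of miR-16-5p itself was not measured. The other 5p sequences, Mir503 included, each occurred in 1 of the 2202 annotated hairpins. The longest run that any of those 6 hairpins shared with another was the 16 bases common to Mir195a and Mir195b. Matches outside annotated hairpins were not searched.

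Mir322 had by far the most counted reads of the members, with reads that fit both Mir16 genes left out. Its counts were 17099 for replicate 1 and 22115 for replicate 2, or 10729 and 10642 counts per 1000000 gene-assigned reads (CPM), with a mean of 10685 ± 61.2 CPM (SD, n = 2). The replicates lay within 1% of each other, and Mir322 ranked 20th of 2202 genes by mean CPM of counted reads. It lies on the X chromosome (mm10, minus strand, 53054255 to 53054349). Mir503, whose hairpin starts 295 bases further along the same strand (53053984 to 53054054), had 108 and 149 reads. At 69.7 ± 2.78 CPM it was the lowest member by counted reads and ranked 180th. The members with the most and the fewest counted reads were thus neighbours, and their mean levels differed 153-fold. Neither gene lay inside a longer annotated gene.

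Mir195a, the next member by mean counted level, lies with Mir497 on chromosome 11, on the plus strand and outside any longer annotated gene. Mir195a (70235042 to 70235135) had 2618 reads in replicate 1 and 4681 in replicate 2, 1948 ± 431 CPM, and ranked 45th. Mir497 (70234717 to 70234800) had 1134 and 1838 reads, 798 ± 122 CPM, and ranked 69th. Both genes were higher in replicate 2. The hairpin of Mir497 lies within that of Mir497b, annotated on the minus strand, so its reads can be assigned only where strand is used. Mir497b had no read on its own strand.

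Mir15a and Mir16-1 lie in introns of the non-coding gene Dleu2 on chromosome 14, minus strand. Mir15a (61632027 to 61632110) had 2950 reads in replicate 1 and 2575 in replicate 2, 1545 ± 433 CPM. Mir16-1 (61631880 to 61631972) had 2783 and 2678 reads, 1517 ± 323 CPM. Although the raw counts of replicate 1 were close to those of the deeper library of replicate 2, the CPM of both genes were higher in replicate 1. The cluster of Mir15b and Mir16-2 on chromosome 3, plus strand, lies in introns of Smc4, which encodes a subunit of the condensin complex that compacts chromosomes in dividing cells. Mir15b (69009772 to 69009835) had 697 and 620 reads, 368 ± 98.3 CPM. Mir16-2 (69009902 to 69009996) had 398 and 419 reads, 226 ± 34.0 CPM.

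**Figure D1:**
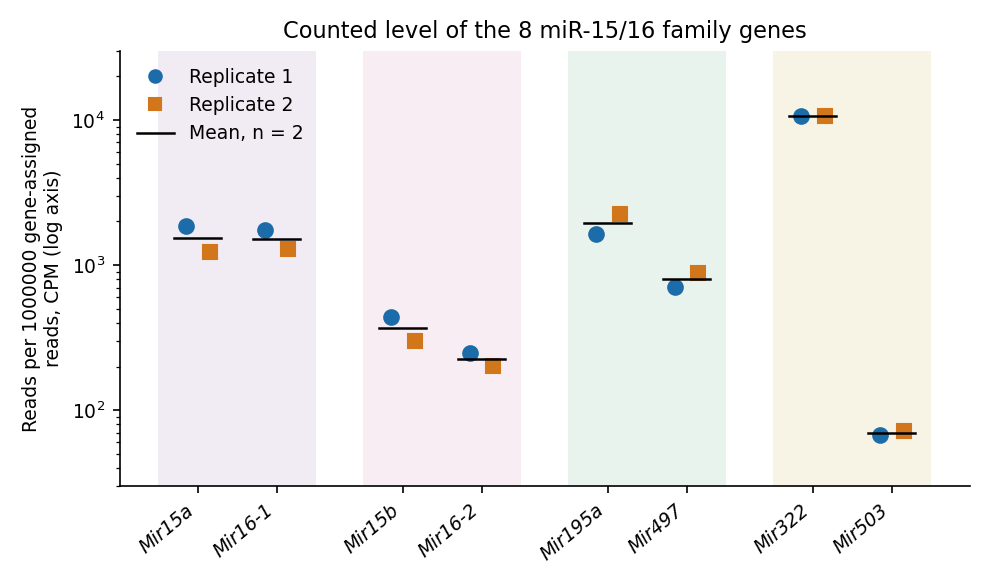
Counted level of each family gene in CPM on a log axis, by cluster (shaded); circles are replicate 1, squares replicate 2 and lines the mean of both. Mir322 stood at 10729 and 10642 CPM, and its neighbour Mir503 at 67.8 and 71.7 CPM.

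By mean CPM the order was Mir322, Mir195a, Mir15a, Mir16-1, Mir497, Mir15b, Mir16-2 and Mir503. The ranges of the replicates were apart between neighbours in that order, except between Mir195a and Mir15a and between Mir15a and Mir16-1. Those exceptions also changed places between the libraries: Mir195a was below Mir15a in replicate 1 (1643 against 1851 CPM) and above it in replicate 2 (2253 against 1239 CPM). The order is one of counted reads. Ligation of adapters favours some sequences over others, and the Mir16 genes are counted without the reads that fit both, so it need not be the order of the microRNAs in the tissue.

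Together the 8 genes held 27787 reads in replicate 1 and 35075 in replicate 2. That was 1.74% of gene-assigned reads in replicate 1 (exact 95% binomial interval 1.72 to 1.76) and 1.69% in replicate 2 (1.67 to 1.71). All such intervals cover counting error only, since PCR copies of a molecule cannot be recognised. The counted share of the 8 genes varied little, with a mean of 1.72% ± 0.0393 (SD, n = 2), while its make-up varied more. This share and the proportions below leave out reads that fit both Mir16 genes, so they are not those of the whole family. Without Mir16-1 and Mir16-2 the share was 1.54% in replicate 1 and 1.54% in replicate 2. The X cluster gave 61.9% of the family's reads in replicate 1 (61.4 to 62.5) and 63.5% in replicate 2 (63.0 to 64.0). Mir15a and Mir16-1 gave 20.6% in replicate 1 (20.2 to 21.1) and 14.98% in replicate 2 (14.6 to 15.4). Mir195a and Mir497 gave 13.5% in replicate 1 (13.1 to 13.9) and 18.6% in replicate 2 (18.18 to 18.997), so these clusters exchanged second place. Mir15b and Mir16-2 gave 3.94% in replicate 1 (3.71 to 4.18) and 2.96% in replicate 2 (2.79 to 3.15).

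**Figure D2:**
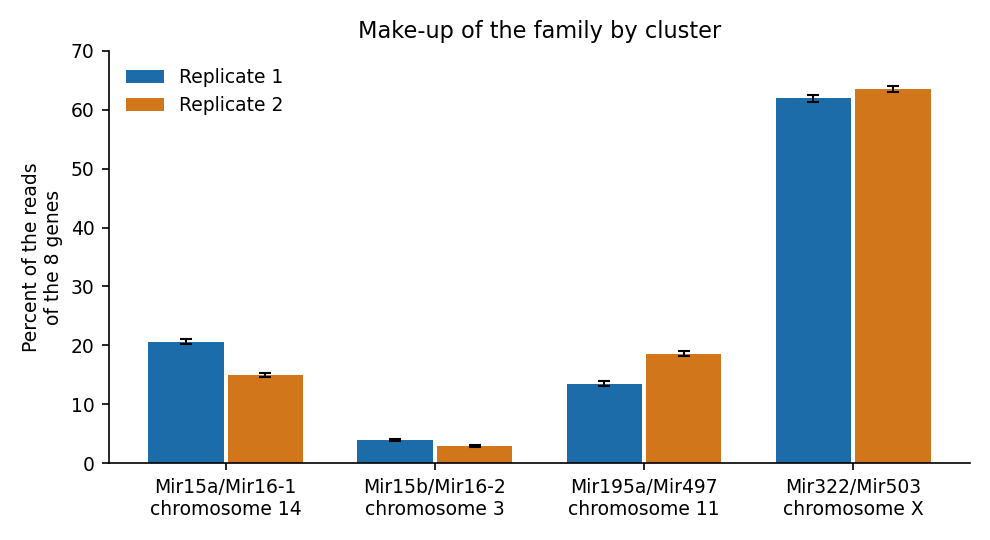
Percent of the counted reads of the 8 genes held by each cluster, replicate 1 left and replicate 2 right. Reads that fit both Mir16 genes are left out. Error bars are exact 95% binomial intervals. The X cluster held 61.9% and 63.5%, and the chromosome 14 and chromosome 11 clusters exchanged second place.

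These proportions lie within a library and do not depend on how the libraries are scaled to each other. Read for read, Mir15a and Mir16-1 stood at 1.53 times Mir195a and Mir497 in replicate 1 and at 0.806 times in replicate 2, a 1.90-fold difference between the libraries. Mir15b and Mir16-2 likewise stood at 0.292 times Mir195a and Mir497 in replicate 1 and 0.159 times in replicate 2, which is 1.83-fold. The clusters on chromosomes 14 and 3, which each hold a Mir16 copy, kept nearly the same ratio to each other, 5.24 in replicate 1 and 5.06 in replicate 2.

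For folds, counts were scaled with TMM factors and replicate 1 was set over replicate 2. The 2 libraries form 1 group, so folds are given with exact 95% counting intervals and no p-value. Mir15a was 1.43-fold higher in replicate 1 (1.352 to 1.504) and Mir16-1 1.29-fold (1.23 to 1.36). Mir15b was 1.40-fold higher (1.25 to 1.56) and Mir16-2 1.18-fold (1.03 to 1.36). The sign was the opposite on chromosome 11, where the fold of Mir195a was 0.696 (0.663 to 0.730) and that of Mir497 0.768 (0.713 to 0.827). On the X chromosome the fold of Mir322 was 0.962 (0.943 to 0.982) and that of Mir503 0.902 (0.698 to 1.16). With this scaling the family genes of a cluster had the same sign of difference in all 4 clusters, though the interval of Mir503 spans 1. With scaling by total reads the log2 folds were 0.012 for Mir322 and -0.081 for Mir503, and with no read minimum 0.024 and -0.069, so that the signs on the X chromosome then differed.

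All 8 members had at least 10 reads in both libraries, the minimum for a detected gene, and none differed 1.5-fold or more in either direction. Among all 273 detected genes, 31.5% did, 15.8% with the higher level in replicate 1 and 15.8% with the lower. The median absolute log2 fold was 0.38 for the members and 0.36 for all detected genes, so the members and the usual gene were close by this measure. The fold of the summed family was 0.986 (0.971 to 1.00). Scaling by total reads moved every log2 fold up by 0.07. With it Mir322, the X cluster and the summed family turned to folds above 1, while the other members and clusters kept their sign. With TMM factors computed without a read minimum, Mir15a passed the threshold at 1.51-fold.

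**Figure D3:**
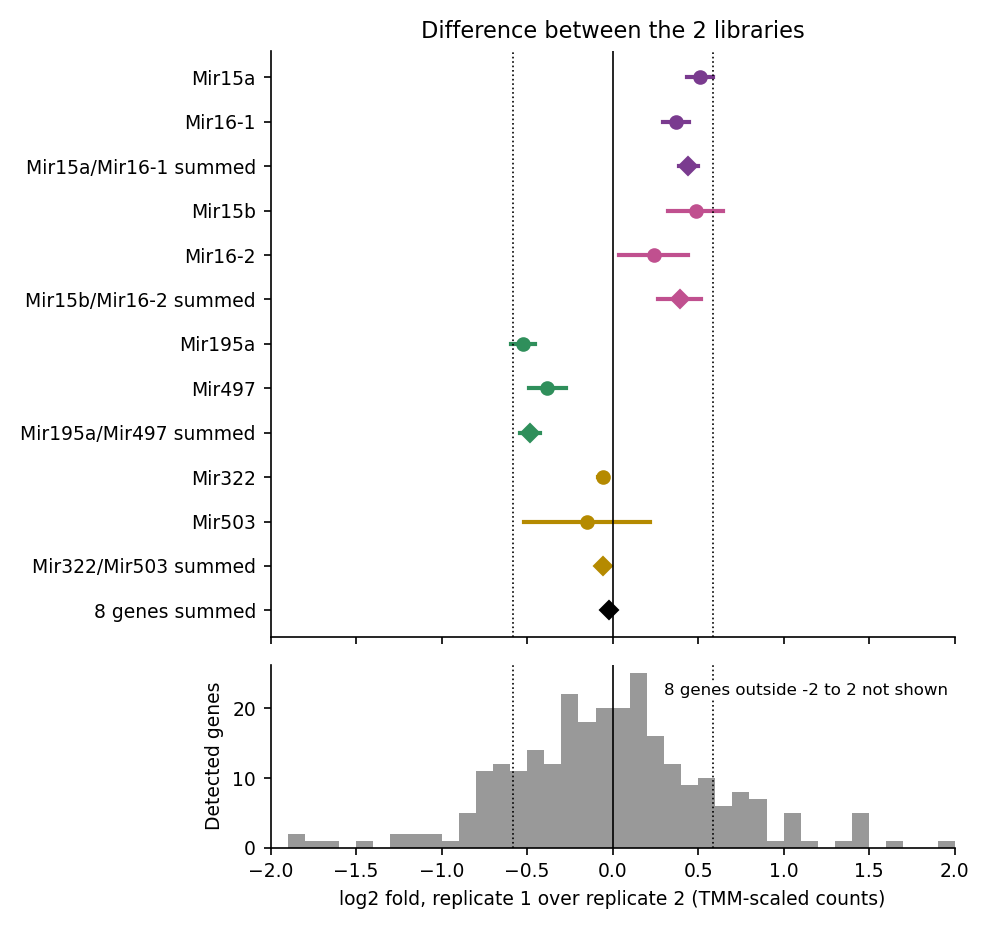
Upper panel, log2 fold of replicate 1 over replicate 2 for each gene (circles) and each summed cluster and the summed family (diamonds), with exact 95% counting intervals; dotted lines mark 1.5-fold. Lower panel, the same quantity for the 273 detected genes, of which 8 lie outside the axis. The chromosome 14 and 3 genes lie right of 0, the chromosome 11 genes left of it, and the X cluster close to it.

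Markers of several cell types differed between the same libraries. Red blood cell genes (Mir451a and Mir144) held 3.73% of gene-assigned reads in replicate 1 and 0.898% in replicate 2, and the genes of smooth muscle and mesenchyme (Mir143 and Mir145a) 12.03% and 6.25%. These sums, of 2 genes each, were higher in replicate 1, like the clusters of Mir15a and Mir15b. Other genes tied to such cells went both ways. Mesenchymal Mir214 had 424 CPM in replicate 1 and 633 in replicate 2, and Mir199b 210 and 46.7 CPM. Mir486, which red blood cells share with muscle, had 972 and 1170 CPM. The endothelial gene Mir126a held 8.82% in replicate 1 and 11.3% in replicate 2, the 4 leukocyte genes 0.142% and 0.209%, and the 9 skeletal muscle genes 2.21% and 6.98%. These sums were higher in replicate 2, like the cluster of Mir195a, but members of the last 2 lists went both ways. Of the leukocyte genes, Mir155 (582 and 1357 CPM) and Mir150 (314 and 495 CPM) were higher in replicate 2, whereas Mir142 (449 and 203 CPM) and Mir223 (77.2 and 36.6 CPM) were higher in replicate 1. The counted muscle sum was mostly Mir206, with 32871 and 139295 reads, 3.40-fold higher in replicate 2. The genes Mir499, with 86 and 1527 reads, and Mir208b, with 5 and 889, which lie in myosin genes of slow fibres, differed more. Mir1a-1, with 32 and 24 reads, and Mir133a-1, with 47 and 43, had the higher CPM in replicate 1. Reads that fit both Mir1a genes or both Mir133a genes are credited to no gene. These counts and the muscle sum leave them out, so they need not be the levels of those microRNAs. All genes of those lists had reads. The heart gene Mir208a had 1 read in replicate 1 and 15 in replicate 2, the liver gene Mir122 had 321 and 347, and of 6 neuronal genes all except Mir9-3, with 0 reads and 1 read, were at 0, and these Mir9 and Mir124a genes are identical copies with the same limit as the Mir16 genes. The part of these cell types in the differences of the family was not tested. In a bulk tissue fewer cells of a type and less RNA per cell cannot be told apart. Reads of Mir206, which is specific to skeletal muscle, were thus present in both libraries, at levels that differed between them.

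Base composition ran alongside the folds. The hairpins of Mir16-2, Mir15b, Mir16-1 and Mir15a had a GC content of 36.8% to 45.2% and folds above 1. The hairpins of Mir322, Mir195a, Mir503 and Mir497 had 51.6% to 61.9% and folds below 1. Across the 8 members, which share clusters and are not independent, the correlation of log2 fold with GC content was -0.83 (Pearson's r) or -0.71 (Spearman's rho). Across all 273 detected genes the same values were -0.13 and -0.12, and a linear fit dropped by 0.11 in log2 fold per 10 percentage points of GC. After this fit was subtracted, the folds were 1.39 for Mir15a, 1.25 for Mir16-1, 1.31 for Mir15b, 1.08 for Mir16-2, 0.726 for Mir195a, 0.851 for Mir497, 0.983 for Mir322 and 0.946 for Mir503. Each member thus kept its sign, while the summed family turned to a fold just above 1. At the members the fit ran from a log2 fold of -0.148 for Mir497 to 0.136 for Mir16-2. The part of GC content in the differences was not tested. The fit was chosen after the data were seen.

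**Figure D4:**
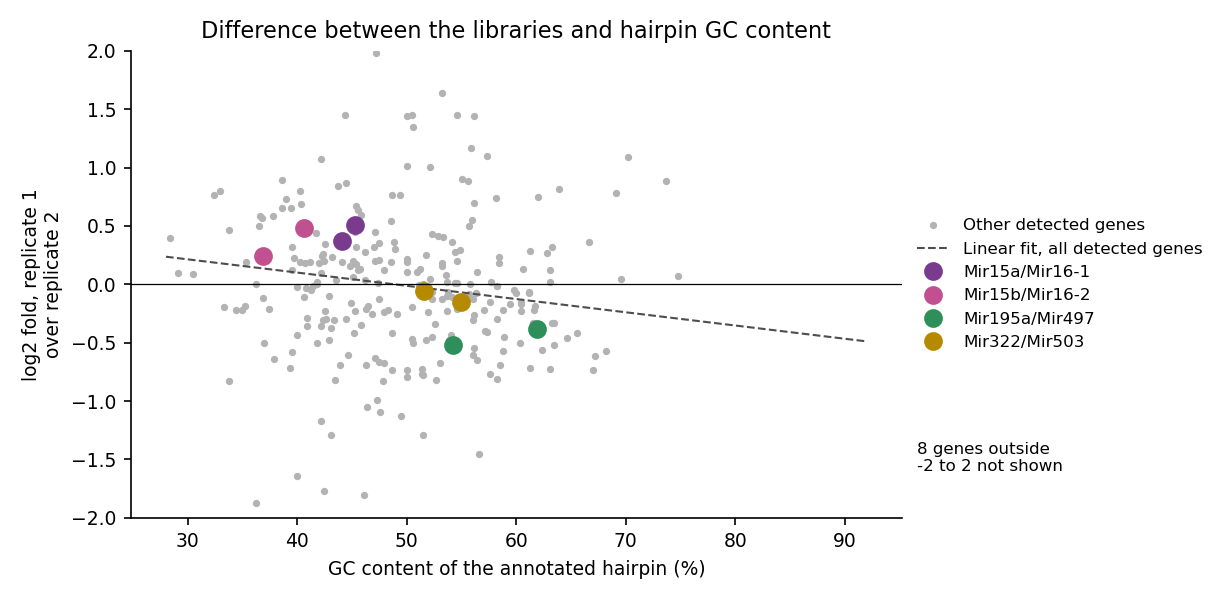
Log2 fold of replicate 1 over replicate 2 against the GC content of the annotated hairpin in percent; grey points are the other detected genes, coloured points the family by cluster and the dashed line a linear fit over all 273 detected genes, of which 8 lie outside the axis. The 4 members with folds above 1 lie at 36.8% to 45.2% GC and the other members at 51.6% to 61.9%.

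Within clusters the log2 ratio of the genes, replicate 1 minus replicate 2, was 0.14 for Mir15a over Mir16-1, 0.24 for Mir15b over Mir16-2, -0.14 for Mir195a over Mir497 and 0.09 for Mir322 over Mir503. Mir15a gave 51.5% of the reads of its cluster in replicate 1 (50.2 to 52.8) and 49.0% in replicate 2 (47.7 to 50.4), a near even division with Mir16-1, whose count leaves out the reads shared with Mir16-2. Mir15b gave 63.7% of its cluster in replicate 1 (60.7 to 66.5) and 59.7% in replicate 2 (56.6 to 62.7). Mir195a gave 69.8% in replicate 1 (68.3 to 71.2) and 71.8% in replicate 2 (70.7 to 72.9). Mir322 gave 99.37% in replicate 1 (99.24 to 99.48) and 99.33% in replicate 2 (99.21 to 99.43), and it exceeded Mir503 158-fold and 148-fold. Hairpins of a cluster were 54 bases apart for Mir15a and Mir16-1, 66 for Mir15b and Mir16-2, 241 for Mir195a and Mir497 and 200 for Mir322 and Mir503.

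The X cluster continues with 5 genes that do not share the seed, Mir351, Mir542, Mir450-2, Mir450-1 and Mir450b. The first 2 of them exceeded Mir503, although they lie further from Mir322. Mir351, 996 bases from the 5′ end of the Mir322 hairpin, had 986 reads in replicate 1 and 1408 in replicate 2, 648 ± 41.6 CPM. Mir542, at 4862 bases, had 675 and 708 reads, 382 ± 58.6 CPM. Mir450b, the most distant at 6271 bases, had 197 and 231 reads, 117 ± 8.80 CPM, which was also above Mir503. Mir450-2 had 25 and 31 reads and Mir450-1 had 21 and 15. Reads that fit both of these genes are credited to neither, so their counts and the sums over the X genes leave them out. Mir322 alone gave 89.5% of the counted reads of the 7 genes in replicate 1 (89.0 to 89.9) and 89.7% in replicate 2 (89.3 to 90.1). The summed fold of the 5 neighbours was 0.990 (0.932 to 1.05), beside 0.962 (0.943 to 0.981) for Mir322 and Mir503 summed. That sum holds opposite differences, since Mir351 was at 0.872 (0.803 to 0.946) and Mir542 at 1.19 (1.07 to 1.32). Mir450-2 was at 1.00 (0.568 to 1.76) and Mir450b at 1.06 (0.873 to 1.29). Of the 5, only Mir450-1, at 1.74-fold with an interval of 0.856 to 3.63, was past 1.5-fold.

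**Figure D5:**
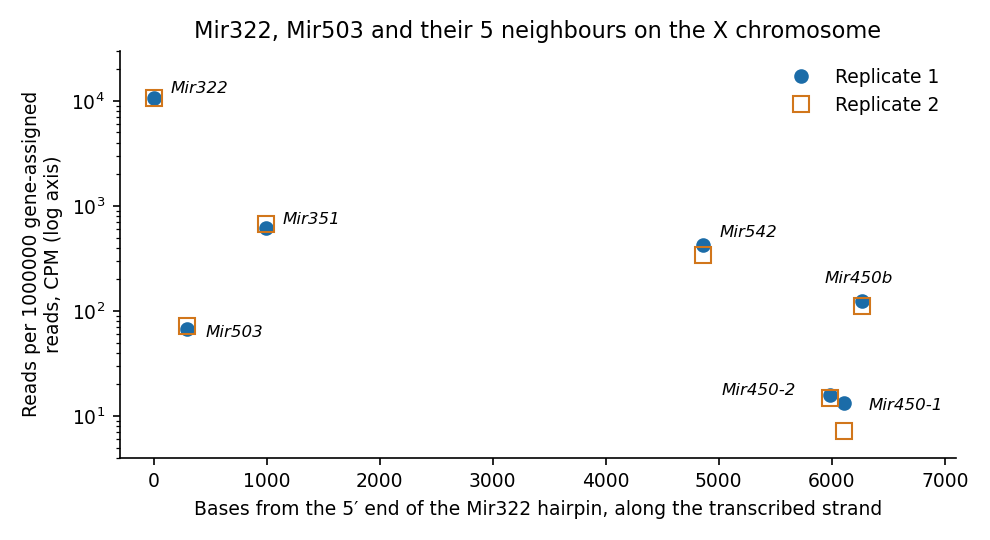
CPM on a log axis of Mir322, Mir503 and their 5 neighbours against the distance in bases from the 5′ end of the Mir322 hairpin along the transcribed strand; circles are replicate 1 and open squares replicate 2. Counted levels did not follow distance: Mir503, at 295 bases, was below Mir351, Mir542 and Mir450b. Reads that fit both Mir450-1 and Mir450-2 are left out.

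Other genes with the seed AGCAGCA added no reads. A search of 1738 mature entries found 4 further genes with it, Mir195b, Mir6342, Mir6353 and Mir6419, and all were at 0 in both libraries, as was Mir1907. For a uniquely placed microRNA 0 reads allow up to 1.88 CPM in replicate 1 and 1.44 CPM in replicate 2, taking 3 counts as the limit. The wider group also takes in miR-103 and miR-107, which carry the same 7 bases 1 position earlier, at bases 1 to 7. Mir107, which lies in an intron of a pantothenate kinase gene, was counted 642 times in replicate 1 and 1237 times in replicate 2, at a fold of 0.646 (0.586 to 0.711). Mir103-1 had 3 and 4 reads and Mir103-2 had 23 and 18, a fold of 1.59 (0.821 to 3.13). Mir107 and Mir103-2 were thus past 1.5-fold, in opposite directions. The Mir103 genes are identical copies of 1 mature sequence and have the same limit as the Mir16 genes. The mature sequence of Mir107 differs from it only near the 3′ end. Reads of Mir107 that end before that base can fit the Mir103 genes too, so its count may leave them out.

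Lists of other microRNAs give a scale for the family. Of 24 listed microRNAs known to restrain the cell cycle, mostly let-7, miR-29 and miR-34 genes, 20 were detected, and their share of gene-assigned reads was 16.9% in replicate 1 and 20.2% in replicate 2. At 1.5-fold 4 were higher in replicate 1 and 2 lower, and the median log2 fold was -0.23, against 0.09 for the family and -0.02 for all detected genes. Mir34a, a p53 target gene, had 610 and 664 reads. Of 19 listed microRNAs known to promote the cell cycle, 14 were detected, holding 1.76% in replicate 1 and 1.30% in replicate 2. The family held 1.74% and 1.69%. Of the 14, 3 were higher and 3 lower, with a median of 0.20. Mir17 of the cluster known as an oncogene had 3778 and 3439 reads, a fold of 1.37, and Mir155 had 928 and 2820, a fold of 0.410. Of 18 listed microRNAs of muscle differentiation, 15 were detected, holding 20.5% and 22.2%, with 3 higher and 4 lower and a median of -0.07. Most of that share was Mir378a, which alone held 17.4% in replicate 1 and 14.4% in replicate 2. Against 15.8% in each direction over all detected genes, the counts of genes past 1.5-fold are read as description only. Reads that fit several genes are credited to none, so the shares of the lists and of the family leave them out.

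The genes nearest to Mir322 over log2(CPM + 1) in both libraries, by Euclidean distance among 272 other detected genes, were Mir30d at 0.213, Mir100 at 0.216 and Mir335 at 0.475. Mir30d had 19673 and 21124 reads, Mir100 had 15066 and 20417, and Mir335 had 13359 and 17781. With 2 libraries this says only that their levels were similar in both. The most abundant gene by counted reads, Mir378a, had 277206 and 299706 reads. Reads that fit several places are credited to no gene, so this rank leaves them out.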

How the data were processed

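The 2 small RNA libraries of 1 group were compared. The authors deposited raw read counts for each microRNA gene (mm10, annotation M21, per their read-me text). Which aligner and counter they used is not given in the sources used here. A table has no header, 4 summary rows and 3 columns, taken from the values to be counts without regard to strand, on the strand of the gene, and on the opposite strand. The second of these was used. Of 9538917 reads in replicate 1 and 14072830 in replicate 2, 1593787 and 2078101 were assigned to genes; 6.37% and 5.98% were unmapped, 1.49% and 1.65% lay outside genes, and the rest matched several places. These rows stayed out of library sizes.

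CPM and shares were computed over gene-assigned reads. Folds used TMM factors of edgeR 4.0.16 over the 273 genes with at least 10 reads in both libraries, and exact conditional binomial intervals (scipy 1.17.1). No p-value was computed, as the design has 1 group. The interval procedure was tested on simulated data that held counting error only, so the test does not cover spread between libraries or PCR copies. Alternatives were other scalings (DESeq2 1.42.0 size factors, total reads), strand, read minimums, pseudocount, denominators and leaving out each replicate; a GC correction was added after the data were seen. Named genes were the members, their X neighbours, opposite-strand and same-seed genes, the miR-103 and miR-107 genes, the 3 genes nearest to Mir322 and the most abundant gene. The members, lists and alternatives were chosen with earlier results of these data known. Mir195b, listed as an opposite-strand gene, lies on chromosome 2. Sequences are from RefSeq (GRCm38.p6), whose hairpin coordinates equalled those of GENCODE M21 for the 7 members listed there. Python 3.11.15 and R 4.3.3 were used.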

Additional observations from a re-analysis of the deposited data

Results flagged for a closer look

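Some reads lie outside the counts used above. At Mir497b, on the strand opposite to the gene, stood 1134 reads in replicate 1 and 1838 in replicate 2. These equal the counts of Mir497 on its own strand, whose hairpin lies inside that of Mir497b, so they are the same reads seen from the other gene. The summary rows credit 7195252 reads of replicate 1 and 10919725 of replicate 2 to several places; how many of them are miR-16-5p was not analysed here. With 2 libraries, none can be singled out as standing apart.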

How the results depend on the processing

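Levels and shares depend on the denominator. The family's mean share of 1.72% became 0.293% with multiply matching reads added to the denominator, 2.35% with counts without regard to strand and 2.04% without the most abundant gene. In the same order of settings, the X cluster changed from 1.08% to 0.184%, 1.55% and 1.28%. Mir15a with Mir16-1 changed from 0.306% to 0.0528% and 0.442%, and Mir15b with Mir16-2 from 0.0594% to 0.0102% and 0.0856%, under the first 2 settings. Mir195a with Mir497 changed from 0.275% to 0.0464% under the first. Without regard to strand Mir497 had no reads, so Mir195a held 100% of its cluster and Mir497 had no fold. Leaving out a replicate gives the value of the other library and no fold, so with 2 libraries it says nothing about stability. No paired analysis was possible because there is 1 group.

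Log2 folds of the clusters kept their sign on chromosomes 14, 3 and 11. With total reads they were 0.51 for Mir15a with Mir16-1, -0.41 for Mir195a with Mir497, 0.011 for the X cluster and 0.047 for the family. With no read minimum when scaling they were 0.52, -0.40, 0.023 and 0.059. GC correction gave -0.39 for Mir195a with Mir497 and -0.025 for the X cluster. The family's was 0.0053 with at least 50 reads and 0.0043 without regard to strand. Its sign, which GC correction also turned, and those of Mir322 and the X cluster depended on the setting.

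Of detected genes, 86 differed 1.5-fold or more, 33 differed 2-fold, 55 of 200 did with at least 50 reads and 187 of 414 with at least 1 read. Among members Mir15a alone passed 1.5-fold, with no read minimum when scaling. Mir503, with 108 and 149 reads, had the widest interval.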
